A study of Mus musculus with 113 samples.

Results

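The change in gene expression between the 4-cell (4C) and 8-cell (8C) stages was read from control mouse embryos: 4 RNA-seq libraries, 2 of 4C and 2 of 8C pools, out of 113 samples in the series, of which 92 came with a table of expression values. These are the control pools of an experiment in which 4 nuclear receptor (NR) transcription factors, Nr5a2, Rarg, Nr1h3 and Nr2c2, were knocked down together by small interfering RNA (siRNA). Zygotes of a C57BL/6J x PWK/PhJ cross by the sample summary of the study (its methods give C57BL/6N for the females from which embryos were collected), wild type in genotype, were injected with a negative control (NC) siRNA at 20 μM and grown to the stage named. Every library is a pool of several embryos, so that a value averages over embryos and cells, and in such bulk samples fewer cells of a kind and less RNA per cell cannot be told apart. For the 4C pools the sample summary of the study gives no injection, whereas the sample labels give the same NC siRNA at both stages; a difference in handling and the difference in stage cannot be told apart here. The matching knockdown pools (4KD, siRNA against each of the 4 genes at 5 μM, 2 pools per stage) entered the fit to share its estimate of the spread. No source states whether replicate pools came from separate collections, so p-values measure the spread between these pools, which may be technical.

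Between these stages the mouse embryo divides, its blastomeres begin to flatten on each other and to polarise, and the genes that will separate the inner cell mass (ICM) from the trophectoderm come into use. Transcripts of the burst that opens zygotic genome activation at the 2-cell stage (2C), and RNAs that the oocyte laid down, are being cleared over the same period. NR5A2 and the other 3 receptors bind related hexamer sequences and are expressed across these stages.

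The files give FPKM, the number of sequenced fragments of a gene scaled to its transcript length and to the depth of the library, for 24006 genes. A gene was tested where its mean reached 1 FPKM in the 4C or the 8C NC group, which kept 9667 genes, and differences are given as log2 fold changes of FPKM + 1 from limma, which understates the change of genes near 0. Over the 4 NC libraries the summed FPKM ran from 430977 to 556462, and each had 8606 to 8860 genes at 1 FPKM or more. The files hold no read counts; the spacing of low values put the other 3 libraries at 0.54 to 0.83 of the depth of 4C NC replicate 1, an estimate on which about 28% to 31% of low genes agreed. Markers of other cells that could come with the embryos were few: of 17 cumulus and granulosa genes, 14 were listed at 0 in each NC library and the sum of all 17 ran from 5.34 to 12.6 FPKM, nearly all of it Amhr2. The 8 sperm genes summed to 0 to 4.26 FPKM. The 7 oviduct and blood genes summed to 142 FPKM in 4C replicate 2 and to 15.3 to 44.0 FPKM in the other 3 libraries; the haemoglobin gene Hba-a1 stood highest, at 10.7 and 113 FPKM at 4C and 23.5 and 8.27 FPKM at 8C, with Hbb-b1 and Ptprc at 0 throughout, and its part in the results below was not tested.

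The stage labels were checked against genes that the study assigned to single stages of reference embryos, using its assignments only. Over the 32 tested genes of the early 2C class, the median level on the log2(FPKM + 1) scale was 6.81 and 6.05 in 2 separate 2C control pools, 3.97 and 5.15 in the 4C NC pools and 2.73 and 2.60 in the 8C NC pools. Over the 42 genes of the 8C class it was 0.27 and 0.00 at 2C, 2.45 and 1.37 at 4C, and 3.02 and 3.17 at 8C. These medians cover genes that passed the filter, which a gene could do through 1 stage alone. Counted over every member in the files, 29 and 34 of the 42 early 2C genes reached 1 FPKM in the 4C pools and 24 in each 8C pool. Of the 45 genes of the 8C class, 36 and 24 did so at 4C and 39 and 38 at 8C. Of the 130 genes of the ICM class, 22 and 8 did so at 4C and 26 and 33 at 8C. By these counts both 8C pools lay on the later side of both 4C pools in each of these classes. So they did in the late 2C class, at 485 and 505 genes at 4C and 466 and 456 at 8C. The 4C and zygote classes did not separate the stages. Of the 15 genes of the 4C class, 13 and 14 reached 1 FPKM at 4C and 12 and 15 at 8C. Of the 53 genes of the zygote class, 35 and 40 did so at 4C and 37 and 36 at 8C. The 4C pools stood apart from each other: in the early 2C and 8C classes replicate 2 was nearer to the 2C pools and replicate 1 nearer to the 8C pools. The same showed over all 9667 genes, where 4C NC replicate 1 correlated with 8C NC replicate 2 at r = 0.94 and with its own replicate at r = 0.90, a description across genes in which levels are shared by every library. The column headers of these 2 libraries, 4C replicate 1 and 8C replicate 2, both name replicate 1, although the sample label calls the 8C pool replicate 2. Both also fall, with 2 4KD libraries, in 1 run of consecutive library numbers in the column headers. Differences are therefore also given within this number run (8C replicate 2 minus 4C replicate 1) and between the other pair (8C replicate 1 minus 4C replicate 2), and what the number run stands for was not tested.

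**Figure D1:**
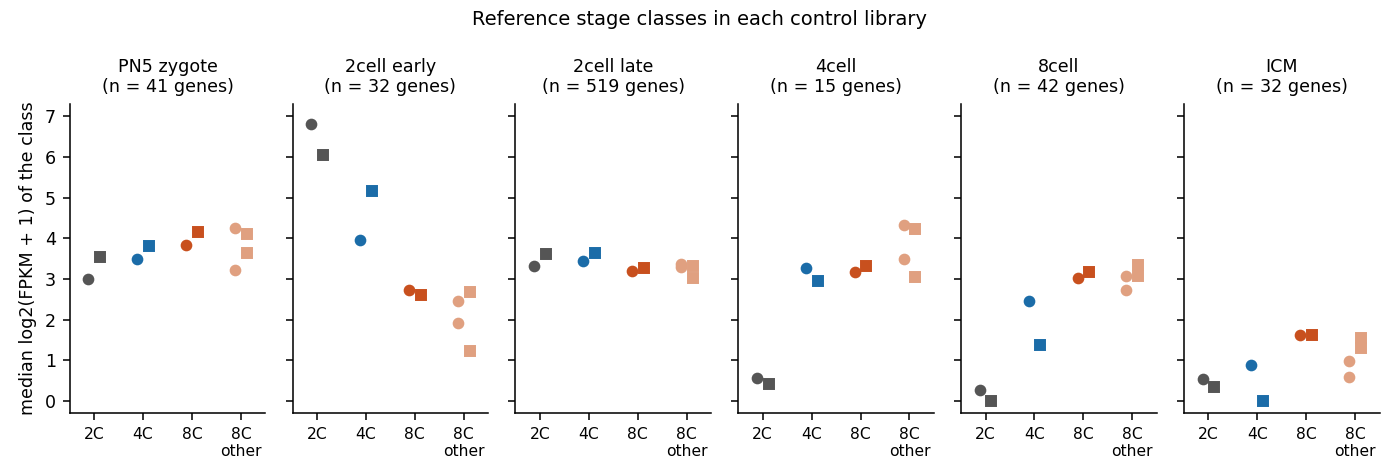
Median level, as log2(FPKM + 1), of the genes of 6 reference stage classes (panels) in single control libraries: 2C pools (grey), 4C NC (blue), 8C NC (dark orange) and 4 further 8C control pools from other experiments (light orange); circles are replicate 1 and squares replicate 2. The early 2C class steps down from 2C to 8C and the 8C class steps up, with the 4C pools at 3.97 and 5.15 in the former and 2.45 and 1.37 in the latter.

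To ask which genes changed from 4C to 8C, the 2 groups were compared in the fit over all 8 libraries. At the limits that the study set in its methods (adjusted p below 0.01, with a log2 fold change of 2 or more) no gene passed by limma (0 of 9667). At an adjusted p under 0.05, 3 genes passed (0.031% of the genes tested): Akr1b8 rose (1 gene, 0.0103%), and Tcstv1 and B020031M17Rik fell (2 genes, 0.0207%). At an unadjusted p under 0.05, 769 genes stood out (7.95%). With at least a 2-fold difference besides, 321 genes were higher at 8C (3.32%) and 397 were lower (4.11%), together 7.43% of the genes tested, and these looser limits, which carry no control for the number of genes, are used below only to describe lists of genes. Counts and medians of a list cover its members that passed the filter, some of them only through the stage in which they were higher. Both 8C libraries lay above both 4C libraries in 1658 genes (17.2%) and below them in 1899 (19.6%), so that the groups did not overlap in 36.8% of the genes. The median log2 fold change over all genes tested was -0.01. The 4C pool left out decided much of this: without 4C replicate 1, 5 genes were higher and 93 lower at an adjusted p under 0.05 and 573 and 715 at the looser limits, whereas without 4C replicate 2 there were 0 of either at the former and 163 higher and 288 lower at the latter. None of the 3 genes passed without 4C replicate 2, 8C replicate 1 or 8C replicate 2, and without 4C replicate 1 B020031M17Rik did (adjusted p = 0.0298 by limma) while Akr1b8 and Tcstv1 did not (0.0517 and 0.0579). An exact permutation test of a single gene in 2 against 2 libraries cannot go below p = 0.333.

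**Figure D2:**
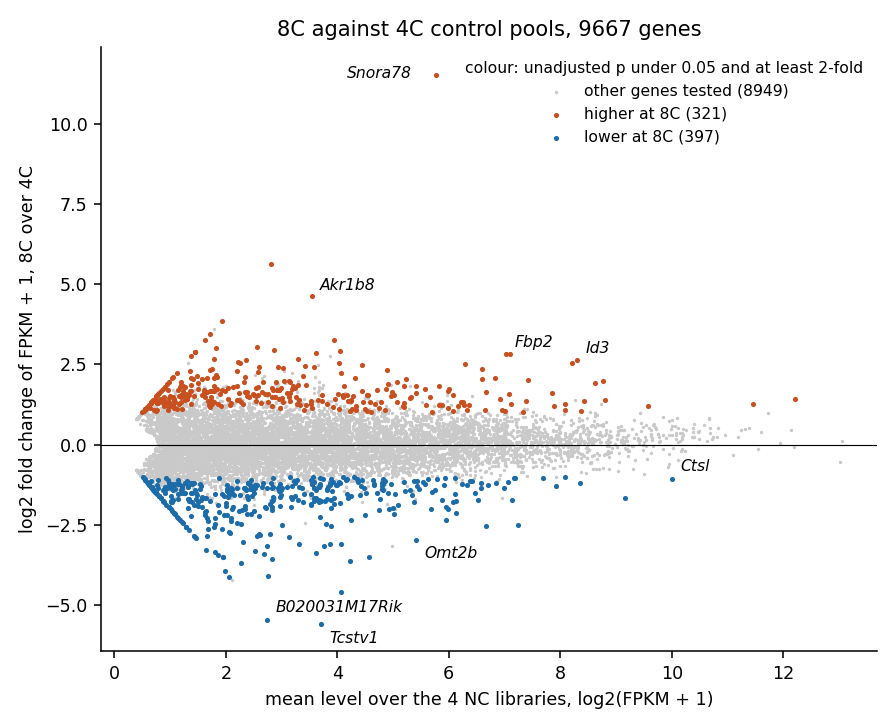
Log2 fold change of FPKM + 1 from 4C to 8C NC pools (y axis) against the mean level over the 4 NC libraries (x axis, log2(FPKM + 1)) for the 9667 genes tested, 1 point per gene. Colours mark the 321 higher and 397 lower genes at the unadjusted limits; of the labelled genes, Akr1b8, Tcstv1 and B020031M17Rik are the 3 at an adjusted p under 0.05.

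Akr1b8 encodes an aldo-keto reductase, an enzyme that reduces aldehydes, and lies at chr6:34304119-34318463 on the plus strand (mm9, the build of the files). It read 1.59 and 1.13 FPKM in the 4C pools and 41.6 and 77.8 FPKM in the 8C pools, so that both 8C pools stood far above both 4C pools. The means were 1.36 ± 0.327 and 59.7 ± 25.6 FPKM (SD, n = 2 each), a log2 fold change of 4.62 ± 0.52 (SE; 24.6-fold on FPKM + 1; adjusted p = 0.0479 by limma). It was of like size within the number run, at 4.92, and between the other pair, at 4.32. In the 4 further 8C control pools it ran from 13.2 to 43.2 FPKM, the highest of which lay between the 8C pools used here and all of which lay above both 4C pools. Without 1 library, or under another setting of the fit, its adjusted p ran from 0.012 to 0.388.

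Tcstv1 and B020031M17Rik belong to the genes of the 2C burst, which are switched on together in late zygotes and 2C embryos; Tcstv1 is a family of near-identical copies with Tcstv3, and reads may be split between copies. Tcstv1 read 60.6 and 131 FPKM at 4C and 0 and 2.51 FPKM at 8C, a log2 fold change of -5.59 ± 0.67 (SE; adjusted p = 0.0479 by limma). B020031M17Rik read 21.1 and 88.1 FPKM at 4C and was listed at 0 in both 8C pools (adjusted p = 0.0479). In both genes the groups did not overlap and 4C replicate 2 was the highest of the 4 libraries. Both were at 102 FPKM or more in the 2C control pools, with Tcstv1 at 368 and 102 FPKM and B020031M17Rik at 268 and 115 FPKM.

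To show the sequence in front of these genes, promoters were cut from the reference genome of the same build, from 250 bases before to 50 after the annotated gene start, for the 8835 tested genes with a single entry of their symbol. Promoters were searched on both strands for TCAAGGNCA, the extended site that NR5A2 binds as a monomer. It was present in 127 of 8835 promoters (1.44%), in 2 of 294 promoters of genes higher at 8C at the unadjusted limits (0.68%) and in 8 of 351 of those lower (2.28%). Shown are the promoter of Akr1b8, the gene that rose, which holds no match, and those of Klf17 and of the 2C burst gene Gm8300, both lower at 8C, which hold 1 match each. Capitals mark the match, which lies on the minus strand relative to the gene and begins at position -46 from the start in Klf17 and at -244 in Gm8300. A match of letters is a description and no evidence of binding. The annotation used has no entry for Tcstv1, Tcstv3 or B020031M17Rik.
Akr1b8, chr6:34303869-34304168, plus strand: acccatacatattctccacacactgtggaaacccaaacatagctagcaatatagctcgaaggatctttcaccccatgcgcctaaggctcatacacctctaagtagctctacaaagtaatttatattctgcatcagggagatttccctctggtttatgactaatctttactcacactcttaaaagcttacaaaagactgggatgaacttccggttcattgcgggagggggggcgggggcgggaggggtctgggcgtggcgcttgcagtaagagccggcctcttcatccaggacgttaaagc
Klf17, chr4:117438204-117438503, minus strand: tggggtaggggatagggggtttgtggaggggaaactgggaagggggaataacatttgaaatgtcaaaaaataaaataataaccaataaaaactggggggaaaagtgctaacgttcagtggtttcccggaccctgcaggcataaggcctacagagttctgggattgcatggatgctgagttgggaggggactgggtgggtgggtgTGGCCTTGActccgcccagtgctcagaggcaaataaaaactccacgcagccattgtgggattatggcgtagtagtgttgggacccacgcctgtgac
Gm8300, chr12:88855016-88855315, plus strand: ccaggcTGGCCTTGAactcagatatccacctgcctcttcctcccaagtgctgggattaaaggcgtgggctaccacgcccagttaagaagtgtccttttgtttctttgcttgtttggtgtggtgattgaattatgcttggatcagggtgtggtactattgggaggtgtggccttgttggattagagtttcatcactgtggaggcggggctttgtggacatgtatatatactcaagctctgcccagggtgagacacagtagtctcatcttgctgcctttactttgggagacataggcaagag

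The 2C burst genes were the list with the lowest median. Of 44 listed members 25 were tested, 5 of which passed the filter through 4C alone. At 8C 22 were lower, and 18 of the 25 were lower without overlap between the groups (72.0%, against 19.6% of all genes tested). At the unadjusted limits 13 passed downwards (52.0%, against 4.11% of all genes tested) and 0 upwards. The median log2 fold change was -1.70 against -0.01 for all genes tested. Tdpoz5, of a family of BTB-domain proteins, read 57.6 and 73.6 FPKM at 4C and 2.53 and 6.98 FPKM at 8C (log2 fold change -3.64 ± 0.54; adjusted p = 0.122). Its neighbour Tdpoz4 (chr3:93600320-93601432) read 29.8 and 18.3 FPKM at 4C and 0.906 and 1.19 FPKM at 8C. Tcstv3 read 47.4 and 130.6 FPKM at 4C and 4.97 and 7.37 FPKM at 8C, and Gm8300, whose promoter is shown above, 8.12 and 17.3 FPKM against 0 and 0.315 FPKM. In all 4 of these genes each 8C pool lay below each 4C pool. Not all members followed: Tdpoz2 was higher in both 8C pools, at 18.3 and 39.0 FPKM against 13.6 and 17.3 FPKM. Sp110 and Eif1a differed by less than their spread, the former at 123 and 125 FPKM at 4C and 84.6 and 212 FPKM at 8C. The median of the list was -1.34 within the number run and -2.18 between the other pair. It ran from -1.869 to -1.426 whichever NC library was left out. Members of these families are near-identical copies, so a single member's value is uncertain.

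By the rule for the largest differences, the 15 genes named as lower included B020004C17Rik (22.8 and 281 FPKM at 4C, 2.21 and 2.63 FPKM at 8C) and BC147527 (11.04 and 63.2 FPKM against 0.556 and 0.726 FPKM), and the predicted genes Gm4971, Gm12789, Gm13043 and Gm7102. Gm4971 read 10.7 and 19.6 FPKM at 4C, was listed at 0 in both 8C pools, and came closest to the threshold of the genes that missed it (adjusted p = 0.0858). Tmsb15a, a thymosin that binds actin monomers, read 6.04 and 42.0 FPKM at 4C and was listed at 0 in both 8C pools. Iqcf1 read 41.5 and 36.3 FPKM at 4C and 0 and 13.5 FPKM at 8C. Of the tested minor zygotic genome activation genes, 39.5% passed the unadjusted limits downwards, against 4.11% of all genes tested. In the study's class of minor zygotic genome activation genes, 37 of 43 tested members (of 62 listed; 13 passed the filter through 4C alone) were lower, 17 of them at the unadjusted limits, with a median of -1.10; without 8C replicate 1 the latter count was 10 and without 4C replicate 2 it was 11.

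**Figure D3:**
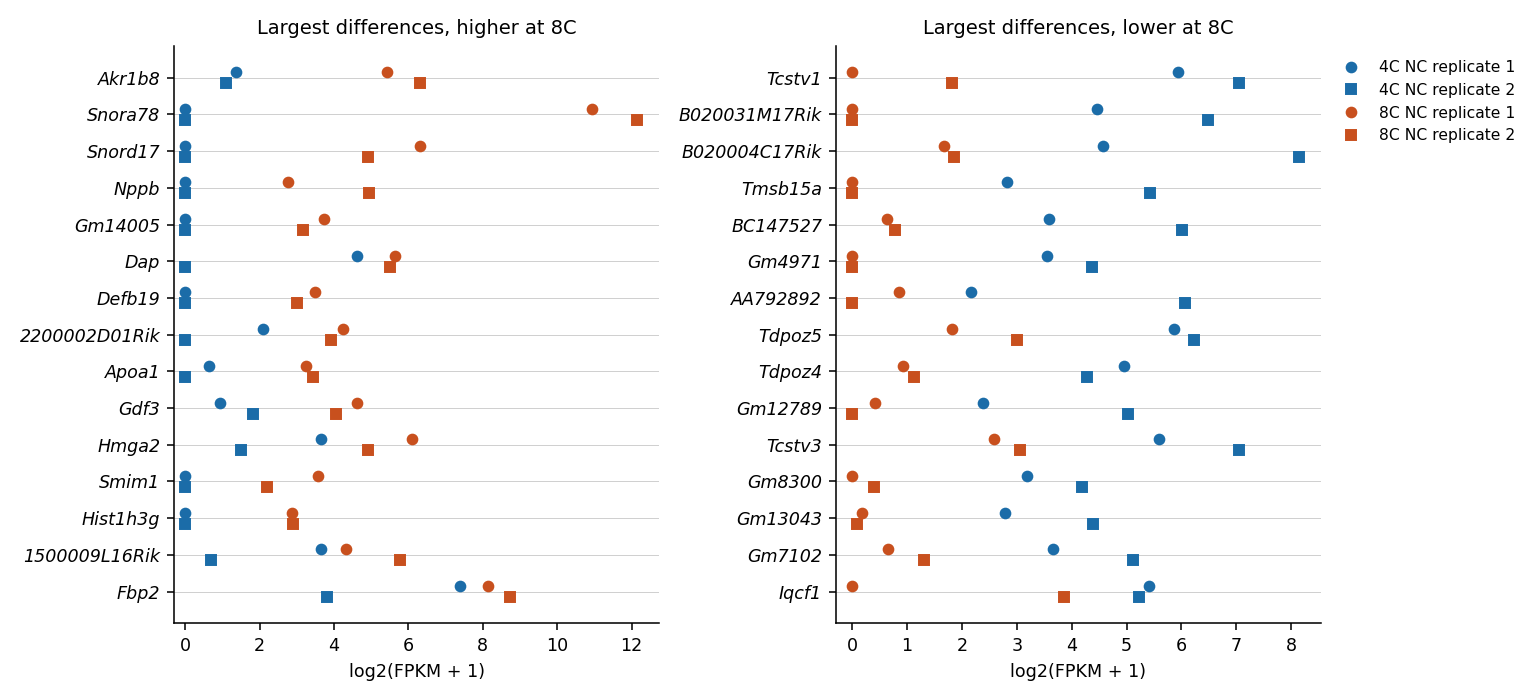
Level in each NC library, as log2(FPKM + 1), of the 15 genes with the largest differences higher at 8C (left) and lower at 8C (right). All of them were chosen from genes that passed the unadjusted limits. Blue points are 4C and orange points 8C pools, circles replicate 1 and squares replicate 2; by the rule for these genes the colours do not overlap, and in Dap, Hmga2 and Fbp2 4C replicate 1 lies nearer to the 8C pools than 4C replicate 2 does.

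Among transcripts deposited by the oocyte, 28 of 36 tested members (of 57 listed, with 14 past the filter through 4C alone) were lower at 8C. Of the 36, 10 passed the unadjusted limits downwards (27.8%, against 4.11% of all genes tested). A further 2 members passed upwards (5.56%, against 3.32%), and the median was -0.87. Omt2b, an oocyte maturation transcript, read 37.2 and 369 FPKM at 4C and 12.02 and 16.5 FPKM at 8C. Tcl1b3, of the T-cell leukaemia 1 family, read 2.89 and 8.19 FPKM at 4C and was listed at 0 in both 8C pools. The growth factor Gdf9 read 3.25 and 9.61 FPKM against 1.01 and 1.98 FPKM. In each of these the 2 groups did not overlap, and 4C replicate 2 was by far the highest library. Khdc3, a subunit of the subcortical maternal complex, went the other way, at 93.4 and 10.4 FPKM at 4C and 117 and 297 FPKM at 8C. Without 1 NC library the median of the oocyte list ran from -1.395 to -0.3476, so that its size depended on single libraries. The median was -0.33 within the number run and -1.24 between the other pair. In the Obox homeobox family, Obox6 was abundant and level, at 1067 and 1395 FPKM at 4C and 1120 and 1094 FPKM at 8C, while Obox3 was at 49.7 FPKM in 4C replicate 2 and listed at 0 in the other 3 NC libraries.

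Higher at 8C besides Akr1b8 were genes of varied function, none of which passed the adjusted test. Fbp2, an enzyme of gluconeogenesis, read 167 and 13.1 FPKM at 4C and 283 and 426 FPKM at 8C (log2 fold change 2.83 ± 0.90; adjusted p = 0.501). Hmga2, an architectural chromatin protein, read 11.6 and 1.83 FPKM against 67.4 and 29.2 FPKM. Apoa1, the main protein of high-density lipoprotein, read 0.569 and 0 FPKM against 8.46 and 9.75 FPKM. On the log2 scale, in Fbp2 and Hmga2 the 4C pools differed more from each other than 4C replicate 1 did from the nearer 8C pool, whereas in Apoa1 both 4C pools were low. Nppb, which encodes a natriuretic peptide, Defb19, a defensin, Smim1 and Gm14005 were at or near 0 in both 4C pools and between 3.63 and 29.6 FPKM at 8C. The 4 further 8C control pools differed among themselves in Defb19, at 11.1 FPKM in 1 pool and 0 in the other 3, and in Nppb, at 12.5, 0, 6.97 and 0.545 FPKM, while Smim1 ran from 2.62 to 5.79 FPKM and Gm14005 from 1.89 to 9.60 FPKM. The small nucleolar RNA Snora78 was listed at 0 in both 4C pools and at 1955 and 4501 FPKM in the 8C pools (adjusted p = 0.275); it is so short that few fragments give a high FPKM, and the further 8C control pools read from 0 to 3163 FPKM.

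Of the reference classes, the 8C class had 38 of 42 tested members (of 46 listed) higher and a median of 1.26. Of the 42, 6 passed the filter through 8C alone. At the unadjusted limits 11 members of the 8C class passed upwards (26.2%, against 3.32% of all genes tested) and 1 downwards (2.38%, against 4.11%). Its upward count was 5 without 4C replicate 2, 6 without 8C replicate 1 and 9 to 14 without either of the other libraries. Of 131 genes of the ICM class 32 passed the filter, 22 of them through the 8C group alone, so the direction of this class is no result. Of all 32, 10 were higher at the unadjusted limits (31.25%, against 3.32% of all genes tested). Without the filter 8 of 94 were, beside 281 of 14447 genes in all. Among the major zygotic genome activation genes, 651 of 1035 tested members were lower and the median was -0.25, with 98 lower and 21 higher at the unadjusted limits; the lower count fell to 39 without 4C replicate 2 and to 63 without 8C replicate 1, and the higher count was 11 without 4C replicate 2, 10 without 8C replicate 1 and 35 without 4C replicate 1. Of the 1035 major genes, 9.47% passed downwards and 2.03% upwards in the full fit, against 4.11% and 3.32% of all genes tested. The 15 genes of the 4C class had a median of 0.13.

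Pluripotency factors had the highest median of the lists, 1.01, and moved unevenly. Of 22 tested members (of 25 listed), 14 were higher and 8 lower. At the unadjusted limits 8 passed upwards (36.4%, against 3.32% of all genes tested) and 3 downwards (13.6%, against 4.11%). Pou5f1, which encodes OCT4, read 50.7 and 22.9 FPKM at 4C and 88.5 and 155 FPKM at 8C (log2 fold change 1.75 ± 0.55; adjusted p = 0.501). Tfcp2l1, a factor of the naive pluripotency network, read 3.92 and 0.399 FPKM against 9.25 and 18.0 FPKM. Gdf3, a ligand of the TGF-beta family (chr6:122555421-122560105), read 0.904 and 2.57 FPKM against 23.6 and 15.7 FPKM, and was the only 1 of these in which 4C replicate 2 was not the lowest library. In all 3 the 8C pools lay above the 4C pools. Zfp42, Dppa5a, Utf1, Tbx3 and Klf5 were the other 5 members that passed the unadjusted limits upwards; Klf5, which acts in both ICM and trophectoderm, read 40.6 and 13.4 FPKM against 71.8 and 75.6 FPKM.

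Klf17, an early Krüppel-like factor, was lower and very even between replicates. It read 130.2 and 127 FPKM at 4C and 35.7 and 38.6 FPKM at 8C, a log2 fold change of -1.77 ± 0.39 (adjusted p = 0.275), with -1.73 within the number run and -1.80 between the other pair. Fgf4, the growth factor through which the epiblast signals to primitive endoderm, read 6.35 and 12.9 FPKM against 1.41 and 1.65 FPKM, and Tcl1 was the third member that passed these limits downwards. Nanog read 14.6 and 8.56 FPKM at 4C and 10.8 and 18.9 FPKM at 8C, and the abundant Dppa3 5362 and 4302 FPKM against 4274 and 4850 FPKM; in both the groups overlapped. Sox2 did not reach the filter, at 0 in both 4C pools and 0.712 and 0.232 FPKM at 8C. The median of the list was 0.36 within the number run and 1.41 between the other pair, and the upward count was 1 without 4C replicate 2, 3 without 8C replicate 2, 4 without 8C replicate 1 and 9 without 4C replicate 1.

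**Figure D4:**
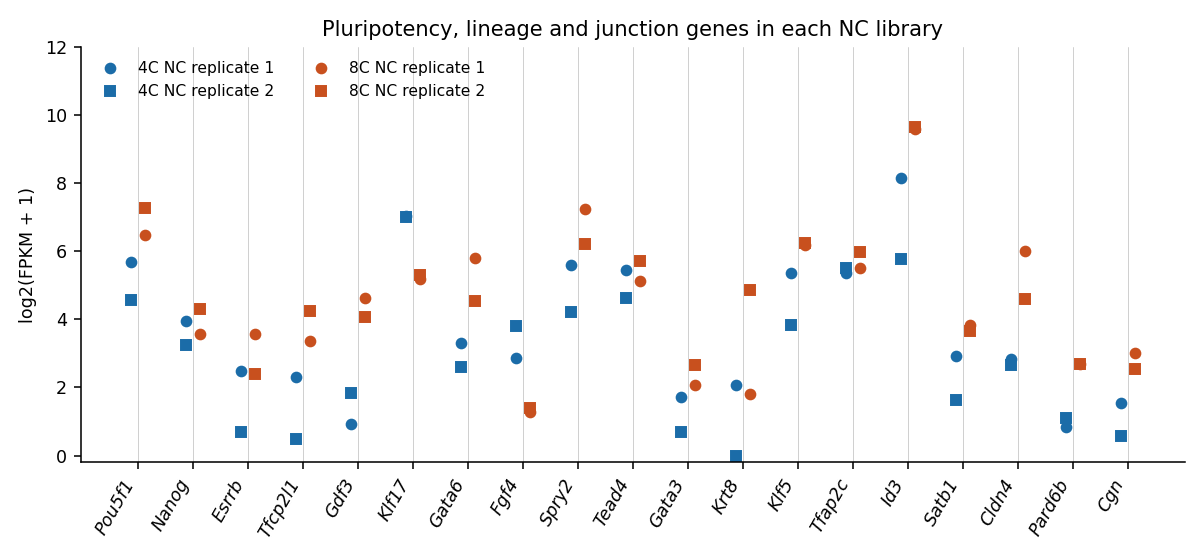
Level in each NC library, as log2(FPKM + 1), of pluripotency, lineage and junction genes. Blue points are 4C and orange points 8C pools, circles replicate 1 and squares replicate 2; Klf17 and Fgf4 sit lower at 8C, Pou5f1, Gdf3, Gata6, Id3 and Cldn4 higher, and Nanog, Tead4 and Tfap2c overlap.

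Genes of the primitive endoderm and its FGF pathway, the next lineage choice inside the ICM, were higher at 8C in 11 of 17 tested cases (of 21 listed). Their median was 0.26. At the unadjusted limits 2 passed upwards (11.8%, against 3.32% of all genes tested) and 1, Fgf4, downwards (5.88%, against 4.11%). Gata6, the factor that specifies primitive endoderm, read 8.86 and 5.08 FPKM at 4C and 54.7 and 22.5 FPKM at 8C (log2 fold change 2.23 ± 0.71; adjusted p = 0.501). Spry2, a feedback inhibitor of FGF signalling, read 47.8 and 17.6 FPKM against 152 and 73.2 FPKM. In both genes the groups did not overlap, and 8C replicate 1 was the highest library. The median was -0.21 within the number run and 0.67 between the other pair, so the direction of this list turned with the pair of libraries, and the upward count was 0 without 4C replicate 2 or without 8C replicate 1 and 4 without either of the others.

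Of 17 tested trophectoderm regulators and markers (of 23 listed), 12 were higher at 8C with a median of 0.37. Both 8C pools lay above both 4C pools in 1 member (5.88%, against 17.2% of all genes tested) and below them in 3 (17.6%, against 19.6%). Dlx3 was lower, with a log2 fold change of -1.808 to -0.6941 whichever NC library was left out. At the unadjusted limits 1 member passed upwards (5.88%, against 3.32% of all genes tested) and 0 downwards. This was Krt8, a keratin, at 3.24 and 0 FPKM at 4C and 2.52 and 28.3 FPKM at 8C, where a single 8C library was high and the groups overlapped. Gata3, a trophectoderm regulator, read 2.27 and 0.606 FPKM against 3.18 and 5.34 FPKM, apart but with an adjusted p = 0.652. Tead4, the DNA-binding partner of YAP, read 43.1 and 23.7 FPKM against 33.9 and 51.3 FPKM and overlapped. Tfap2c, an AP-2 factor, overlapped too, at 40.3 and 44.9 FPKM against 44.4 and 62.8 FPKM. Cdx2 did not reach the filter, at 0.222 and 0.316 FPKM at 4C and 0 in both 8C pools. The median of the trophectoderm list was -0.003 within the number run and 0.67 between the other pair. The spread of a library's median about its group was 0.46, larger than the median itself. In the Hippo pathway, which reads cell position through YAP, 13 of 17 tested members were higher and the median was 0.37. Of these members 0 passed the unadjusted limits in either direction. The Hippo median was -0.05 within the number run and 0.73 between the other pair, with a spread between libraries of 0.41. Wwtr1, which encodes the YAP relative TAZ, read 13.2 and 8.92 FPKM against 24.9 and 18.9 FPKM.

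Genes of adhesion, junctions and polarity, which act in compaction, passed the unadjusted limits in 1 direction in the fit of all 8 libraries. Of 33 tested members (of 38 listed), 27 were higher and the median was 0.30. Of the 33, 3 passed the filter through 8C alone and 1 through 4C alone. In that fit 7 passed upwards (21.2%, against 3.32% of all genes tested) and 0 downwards (against 4.11%). Cldn4, a tight junction claudin (chr5:135420996-135422804), read 6.19 and 5.36 FPKM at 4C and 63.3 and 23.2 FPKM at 8C (log2 fold change 2.55 ± 0.54; adjusted p = 0.271). Pard6b, a subunit of the apical PAR complex, read 0.801 and 1.14 FPKM against 5.49 and 5.51 FPKM. Cgn, the tight junction scaffold cingulin, read 1.94 and 0.502 FPKM against 7.10 and 4.79 FPKM. In all 3 genes both 8C pools stood above both 4C pools. Pard6b was the most even within its groups, but it passed the filter only through the 8C group, in which it was higher. Pkp2 (plakophilin 2, a desmosomal protein), Llgl1, Cdh1 (E-cadherin) and Cldn7 were the other 4, Cdh1 at 7.68 and 2.59 FPKM against 12.3 and 14.3 FPKM. The upward count was 3 without 8C replicate 2, 4 without 4C replicate 2 and 5 or 6 without either of the others. The median was 0.21 within the number run and 0.59 between the other pair. In the list of fluid and ion transport genes, Aqp11, an aquaporin, was the 1 of 11 tested that passed the unadjusted limits downwards (9.09%, against 4.11%). Atp1b3, a beta subunit of the sodium pump, read 221 and 251 FPKM against 170 and 82.5 FPKM.

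Id3, an inhibitor of basic helix-loop-helix factors (chr4:135699412-135701670), was the 1 of 10 tested members of the Id and BMP list at the unadjusted limits (10.0% higher, against 3.32% of all genes tested). It read 287 and 54.2 FPKM at 4C and 767 and 814 FPKM at 8C (log2 fold change 2.65 ± 0.71; adjusted p = 0.371). Both 8C pools were alike, whereas the 4C pools differed from each other by a wider margin, and the difference was 1.501 within the number run and 3.80 between the other pair. Of the other Id genes, Id2 read 11.1 and 5.25 FPKM against 2.30 and 3.51 FPKM, and Id1 overlapped. Satb1, a chromatin organiser, read 6.61 and 2.13 FPKM at 4C and 13.3 and 11.6 FPKM at 8C. Rangap1, the activator of the RAN GTPase, read 27.0 and 13.9 FPKM against 30.7 and 59.7 FPKM.

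Of the 4 receptors targeted in the 4KD pools, Nr5a2, Rarg and Nr1h3 overlapped between the stages in the control pools and Nr2c2 did not. Nr5a2 read 26.8 and 31.7 FPKM at 4C and 27.1 and 30.3 FPKM at 8C (log2 fold change -0.02 ± 0.62), the retinoic acid receptor gene Rarg 16.2 and 7.26 FPKM against 7.31 and 17.2 FPKM, and Nr1h3, which encodes LXR-alpha, 15.0 and 22.3 FPKM against 10.61 and 15.2 FPKM. A difference in these 3 was not detectable with 2 pools a stage. Nr2c2, an orphan receptor, was lower, at 15.0 and 14.5 FPKM at 4C and 4.21 and 6.71 FPKM at 8C (log2 fold change -1.31 ± 0.51; adjusted p = 0.61). It was the only 1 of 14 tested nuclear receptors at the unadjusted limits (7.14% lower, against 4.11% of all genes tested). Esrrb, an orphan receptor of the pluripotency network, read 4.58 and 0.606 FPKM against 10.95 and 4.26 FPKM and overlapped.

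In the lists of ribosomal and respiratory genes few members or none passed the unadjusted limits. Of 77 cytosolic ribosomal protein genes, 68 had a fold change above 0 (median 0.41), 22 lay above both 4C pools in both 8C pools (28.6%, against 17.2% of all genes tested) and 0 passed in either direction. Of 75 subunits of oxidative phosphorylation, 64 had a fold change above 0 (median 0.36) and 2 passed upwards (2.67%, against 3.32% of all genes tested). Uqcrb, a subunit of complex III, read 194 and 155 FPKM at 4C and 459 and 381 FPKM at 8C (log2 fold change 1.26 ± 0.34; adjusted p = 0.371), and Atp5d, of the ATP synthase, 103 and 123 FPKM against 214 and 241 FPKM. In both the groups did not overlap. The spread of a library's median about its group was 0.42 for the ribosomal and 0.35 for the oxidative phosphorylation genes, as large as the medians themselves. In ribosome biogenesis, 33 of 50 genes were lower (median -0.23). Only Polr1e, a subunit of RNA polymerase I, passed the unadjusted limits downwards (2.0%, against 4.11% of all genes tested). It read 52.4 and 74.4 FPKM against 28.7 and 27.6 FPKM. Without 4C replicate 1, 5 genes of ribosome biogenesis passed downwards, and without 8C replicate 2, 6 of oxidative phosphorylation passed upwards (4 without 4C replicate 2).

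**Figure D5:**
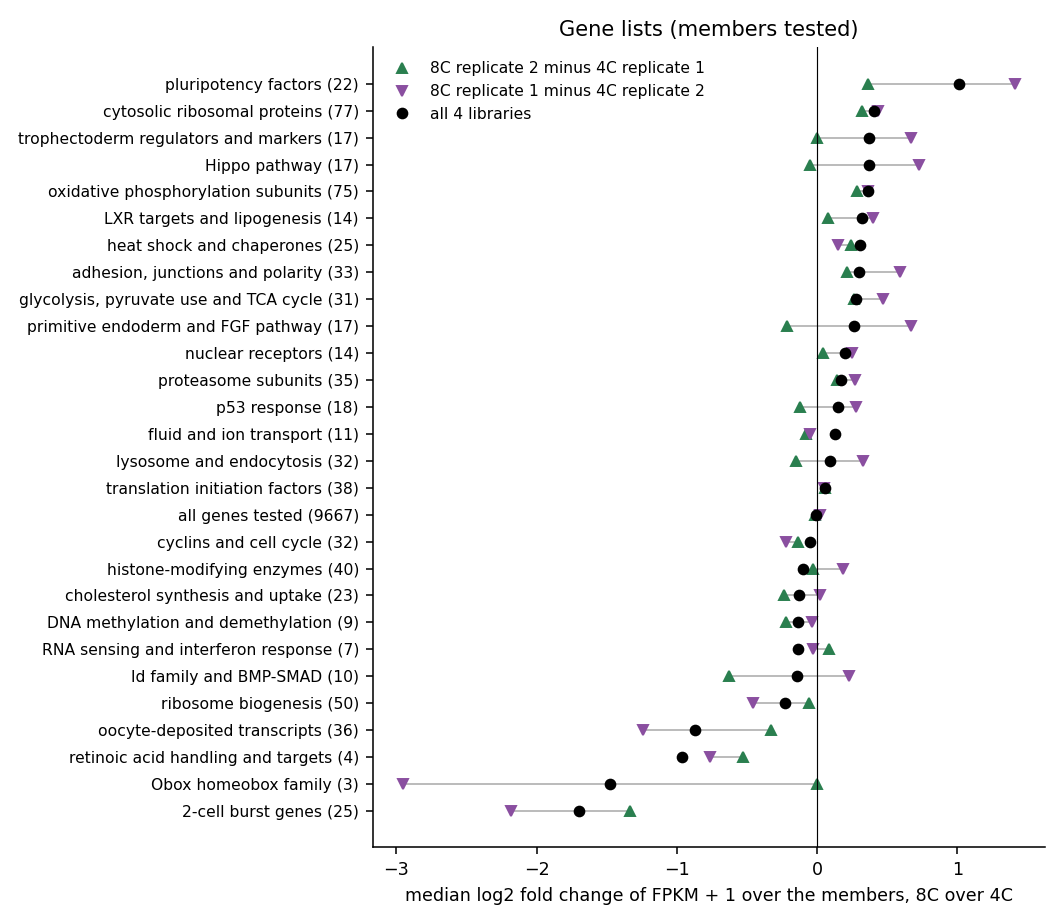
Median log2 fold change of FPKM + 1 from 4C to 8C over the tested members of each gene list (number tested in brackets), for all 4 NC libraries (black circles), for 8C replicate 2 minus 4C replicate 1 (green) and for 8C replicate 1 minus 4C replicate 2 (purple). The 2C burst list lies lowest at -1.70 and the pluripotency list highest at 1.01, beside -0.01 for all genes tested.

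In metabolism and protein handling some genes had groups that did not overlap, as 36.8% of all genes tested did. None of those named here passed the adjusted test. Pgam1, a glycolytic mutase, read 45.2 and 61.6 FPKM at 4C and 138 and 115 FPKM at 8C, while Ldha, which turns pyruvate into lactate, was lower, at 26.0 and 25.9 FPKM against 4.57 and 10.8 FPKM. Of the 31 tested genes of glycolysis, pyruvate use and the TCA cycle, 24 were higher, with a median of 0.27. Hspa5, the chaperone BiP of the endoplasmic reticulum, read 155 and 182 FPKM at 4C and 41.4 and 59.5 FPKM at 8C (log2 fold change -1.73 ± 0.38; adjusted p = 0.274), whereas the cytosolic chaperone Hsp90aa1 was higher, at 285 and 186 FPKM against 447 and 513 FPKM. None of these pairs of groups overlapped. The lysosomal protease gene Ctsl read 1492 and 1487 FPKM against 600.1 and 826 FPKM, and the lysosomal membrane gene Lamp2 430 and 561 FPKM against 279 and 165 FPKM. Plin2, which coats lipid droplets, read 1.54 and 4.02 FPKM against 12.5 and 24.7 FPKM. Tet2, a DNA demethylase, read 0.989 and 1.41 FPKM against 3.97 and 4.00 FPKM, and Kdm4c, a histone demethylase, 17.1 and 27.4 FPKM against 9.03 and 7.89 FPKM. Cdc20, the activator of the anaphase-promoting complex, was lower, at 702 and 686 FPKM against 381 and 403 FPKM. Ei24, of the p53 response, read 75.6 and 97.1 FPKM against 23.6 and 38.5 FPKM.

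Most of the remaining lists lay close to all genes tested. Proteasome subunits had a median of 0.17, initiation factors of translation 0.06, the lysosome list 0.09, cell cycle genes -0.05, histone-modifying enzymes -0.10, cholesterol genes -0.13, and DNA methylation genes, the Id and BMP list and the RNA sensing and interferon list -0.14 each. Heat shock genes had a median of 0.30, genes of LXR targets and lipogenesis 0.32, nuclear receptors 0.20, the p53 response 0.15 and the transport list 0.13, the last of which was below 0 both within the number run (-0.08) and between the other pair (-0.05). The retinoic acid list had 4 tested members with a median of -0.97, of which Rdh11 passed the unadjusted limits downwards (25.0%, against 4.11% of all genes tested). In none of these lists did more than 3 genes pass those limits in either direction.

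To ask whether the step differed when the 4 receptors were depleted, the change in the 4KD pools was set against that in the NC pools. No gene passed at an adjusted p under 0.05 (0 of 9667 by limma), and 223 did at an unadjusted p under 0.05 (2.31%). With NC and 4KD libraries of the same stage and replicate number as a block, 538 of 9667 genes were under the unadjusted and 0 under the adjusted limit. The unadjusted counts carry no control for the number of genes, so they are no evidence of a difference. The 2 changes, which share no library, correlated at r = 0.47 across the 9667 genes, a description in which each NC library has a 4KD library of the next library number and such neighbours deviated together (r = 0.36 at either stage). Of the 321 genes higher in NC at the unadjusted limits, 257 were higher in 4KD (80.06%, against 48.2% of all genes tested), and 177 did not overlap between the 4KD groups (55.1%, against 17.5% of all genes tested). Of the 397 lower genes, 332 were lower in 4KD (83.6%, against 50.5%), and 233 did not overlap (58.7%, against 18.8%). Tcstv1 read 8.97 and 15.3 FPKM in the 4C 4KD pools and 4.85 and 6.72 FPKM in the 8C 4KD pools, below the 4C NC pools at both stages, and Akr1b8 0.475 and 0 FPKM against 7.12 and 10.5 FPKM.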

How the data were processed

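The authors made Smart-seq2 libraries from pooled embryos, aligned read pairs to the mm9 genome (TopHat) and derived FPKM per gene from refFlat models (Cufflinks); the deposited tables hold these FPKM values, 1 column per library, with no counts. The submitters' processing notes also name CASAVA 1.8 and Bowtie2 2.2.2, with no role given. Here 14 tables were joined on the gene symbol over 24006 genes: the 4 NC and 4 matching 4KD libraries that were fitted, and 6 other control libraries shown for their values only. Values were taken as log2(FPKM + 1), and genes with a mean of at least 1 FPKM in the 4C or the 8C NC group entered limma 3.58.1 (R 4.3.3) with 4 groups, a variance trend and Benjamini-Hochberg adjustment over all 9667 genes. The study's edgeR limits were kept, but edgeR needs counts and was not used. Errors of fold changes are standard errors. The script was tested on simulated data with noise drawn independently for each library. The shared deviation of neighbouring libraries was not part of that test, so it gives no error rate for these data.

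Named genes were up to 15 per direction from those with groups that did not overlap and a mean of at least 5 FPKM. Among these, genes with an adjusted p under 0.05 came first, then genes at the unadjusted limits, each ordered by fold change. The 4 members of each of 27 gene lists with the smallest p and the genes central to the study were also named. Up to 5 genes per direction were added by the difference to 4KD, at the same unadjusted limits. Members named beyond these (such as Tdpoz2, Sp110, Gdf9, Khdc3, Cdh1 and Dppa3) were chosen after their values were seen. The conditions, gene lists and rules were chosen with earlier results of these data known. A list is described by counts and its median, with no test over its members. Replicate numbers of the sample labels did not pair the stages: deviations of same-numbered 4C and 8C NC libraries correlated at -0.29 across genes. Same-numbered NC and 4KD libraries of a stage, which carry neighbouring library numbers, deviated together (0.36 at either stage), and a fit with these as a block (duplicateCorrelation, estimated correlation 0.431) was added after seeing the data. Sequences and gene positions come from NCBIM37 (mm9) with GENCODE gene starts. Python 3.11.15 was used for tables.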

Additional observations from a re-analysis of the deposited data

Results flagged for a closer look

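Groups of 2 libraries allow no test for a single library that stands apart. For 5 of the 147 named genes both 8C pools lay on 1 side of both 4C pools in the NC arm and on the opposite side in the 4KD arm. The test of the difference itself was run for all of them, and none passed (adjusted p = 1 by limma). Ldha read 14.9 and 20.8 FPKM in the 4C 4KD pools and 29.8 and 79.0 FPKM in the 8C 4KD pools, against 26.0 and 25.9 FPKM and 4.57 and 10.8 FPKM in the NC pools, a difference between the 2 changes of 3.15 on the log2 scale. Lats2, a kinase of the Hippo pathway, was higher at 8C in the NC pools and lower in the 4KD pools, with a difference of -1.49. The other 3 were the predicted genes Gm2016 (4.28), Gm10662 (-6.21) and Gm7367 (-5.23). These 3 were named by the rule for the largest differences to 4KD, so their large differences are no separate result. The share of all genes tested with such opposite directions was not counted. Gm2016 belongs to a family of near-identical copies, and Gm10662 ranged from 0.342 to 118 FPKM over the 4KD pools.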

How the results depend on the processing

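At the methods' limits 0 genes passed in either direction in every setting but the fit of only the 4 NC libraries, in which 1 gene was higher (Snora78); at the unadjusted limits in their place there were 321 higher and 397 lower. At an adjusted p under 0.05 (1 higher, 2 lower), there were 0 higher and 2 lower with a pseudocount of 0.1, 0 and 0 without a filter, with median-ratio scaling or without the variance trend, and 3 higher and 0 lower in the fit of only the 4 NC libraries; a filter of 5 FPKM and quantile normalization kept the 3 genes. Without 1 NC library these counts ran from 0 to 5 higher and from 0 to 93 lower, the largest without 4C replicate 1. At the unadjusted limits a filter of 5 FPKM gave 193 higher and 262 lower, and leaving out 1 library gave 163 to 573 higher and 256 to 715 lower.

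The 4C and 8C NC libraries share replicate numbers in the sample labels, but these numbers do not pair the stages. The column header of 8C replicate 2 names it replicate 1. With the replicate number of the labels as a block, 0 genes were higher and 1 lower at an adjusted p under 0.05 (Tcstv1). With the numbers crossed, a term chosen after seeing the data, 5 genes were higher and 8 lower. With NC and 4KD libraries of the same number and stage as a replicate block, also added then, 1 gene was higher (Akr1b8) and 1 lower (Tcstv1). In that fit B020031M17Rik had an adjusted p of 0.0525 by limma. Over the alternatives that kept all 4 NC libraries its adjusted p ran from 0.0226 with the numbers crossed to 0.181 without a filter. The difference between the 4KD and the NC change had 0 genes under every alternative run, and 203 to 585 at an unadjusted p under 0.05.

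Of 2029 fold changes of 147 named genes under an alternative, 12 changed sign, in genes whose groups overlapped. Nr5a2 was 0.0036 under quantile normalization. Leaving out 1 library, Nr5a2 ran from -0.14 to 0.0927, Rarg from -0.52 to 0.61, Nanog from -0.0454 to 0.70, Tead4 from -0.0463 to 0.79, Obox6 from -0.33 to 0.0527, Oasl2 from -0.27 to 2.87, Mavs from -0.0301 to 1.43 and Rdh10 from -1.04 to 0.24; the cause was not tested. Of 490 list medians, 60 moved by more than the spread between libraries. FPKM without counts gives no interval for low genes, and 2 pools per stage limit every test.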
